A study of Homo sapiens with 2 samples.

Results

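The 8 genes described here encode the PYHIN family and the core of the inflammasome. The PYHIN genes are AIM2, IFI16, MNDA and PYHIN1, the adaptor is PYCARD, and the NLR sensors are NLRP1, NLRP3 and NLRC4. They were taken by name and made up 8 of 43270 genes and transcripts on the array, with 12 of its 58201 probes. They had been chosen with their difference between the lines known, so those differences are given as a description and none was tested. Expression was measured in the human acute myeloid leukaemia line HL60, promyelocytic in character and labelled parental with no treatment, and in R-HL60, its derivative selected by continuous growth in rising concentrations of cytarabine and labelled resistant and cytarabine-treated. Cytarabine is a deoxycytidine analogue that blocks DNA synthesis. Each line gave 1 Agilent single-colour array, so cell line, culture and array cannot be told apart, and no difference has a test, a standard error or a replicate spread.

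Inflammasomes are protein platforms that form in the cytosol of myeloid cells. A sensor with a pyrin (PYD) or CARD domain detects a danger signal and, directly or through the adaptor ASC, which PYCARD encodes, gathers pro-caspase-1. The active caspase cleaves the precursors of interleukin-1 beta and interleukin-18 and the pore former gasdermin D. PYHIN proteins join a pyrin domain to a DNA-binding HIN domain. AIM2 is the sensor that assembles an inflammasome on double-stranded DNA.

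The genes of the PYHIN family lie next to each other on chromosome 1. The 250 bases before the annotated start of AIM2 are shown first because AIM2 carried the large difference, and those of MNDA beside it as a neighbour of the family with a motif match. Both are from RefSeq (GRCh38.p14), 5′ to 3′ in the direction of the gene. AIM2 is on the minus strand at chr1:159076767-159077016 and MNDA on the plus strand at chr1:158831101-158831350. Capitals mark matches to the motifs named below.
AIM2: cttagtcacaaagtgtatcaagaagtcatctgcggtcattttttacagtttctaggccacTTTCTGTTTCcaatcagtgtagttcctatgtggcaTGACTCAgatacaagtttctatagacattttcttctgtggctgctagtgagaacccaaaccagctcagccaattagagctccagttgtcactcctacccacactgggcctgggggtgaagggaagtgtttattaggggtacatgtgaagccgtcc
MNDA: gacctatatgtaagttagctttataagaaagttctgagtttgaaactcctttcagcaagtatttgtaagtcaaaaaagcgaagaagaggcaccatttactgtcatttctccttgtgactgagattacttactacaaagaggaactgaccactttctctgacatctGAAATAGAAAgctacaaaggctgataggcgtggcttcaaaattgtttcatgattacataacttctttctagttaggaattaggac

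The AIM2 window held an AP-1 match (TGANTCA) at bases -155 to -149 from the start and a match on the other strand to the core of the interferon-stimulated response element (ISRE, here GAAA, any 2 bases, GAAA) at bases -190 to -181. The MNDA window held an ISRE core at bases -85 to -76. Both strands were searched, and the matches did not overlap. Of 35114 such windows in the table, 6.57% held the AP-1 letters and 3.02% the ISRE core. The GAS motif (TTCNNNGAA, in 6.57% of windows), the NF-kB consensus (9.96%) and the PU.1 core GAGGAAG (11.2%) had no match in either. All 10 windows of the 7 members in the promoter set were searched. Outside AIM2 and MNDA the only match was a PU.1 core in the PYCARD window, at bases -30 to -24. These matches are letters in a window, and binding was not measured.

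The windows of PYHIN1 and IFI16 are shown because they share a run of 19 bases, in capitals. PYHIN1 is at chr1:158931302-158931551 and the start of IFI16 used here at chr1:159009657-159009906, both on the plus strand.
PYHIN1: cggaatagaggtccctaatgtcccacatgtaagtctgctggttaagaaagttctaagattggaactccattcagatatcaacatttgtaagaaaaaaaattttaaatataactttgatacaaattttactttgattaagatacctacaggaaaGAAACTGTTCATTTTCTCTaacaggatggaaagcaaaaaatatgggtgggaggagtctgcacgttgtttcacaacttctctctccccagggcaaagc
IFI16: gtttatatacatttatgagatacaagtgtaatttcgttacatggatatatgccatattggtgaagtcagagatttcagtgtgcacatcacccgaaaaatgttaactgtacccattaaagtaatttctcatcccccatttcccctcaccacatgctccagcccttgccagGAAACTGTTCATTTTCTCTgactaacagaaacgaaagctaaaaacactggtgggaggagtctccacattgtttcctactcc

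Neither window held any of the 5 motifs. In local alignments of the 41 pairs of member windows, MNDA with PYHIN1 scored highest at 190 (159 of 248 aligned columns identical), then PYHIN1 with IFI16 at 158 (144 of 241) and MNDA with IFI16 at 121. The other 38 pairs scored 41 to 91. Among them was the IFI16 start that is not shown, at 80 with PYHIN1 and 83 with MNDA. AIM2 scored 76 to 86 with the 4 other windows of its family, inside that range. Some windows of NLRC4 overlap each other, so their pairs are not separate. The alignment describes the sequences and was compared with no measured value.

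All 8 members had a probe above the floor, set at the array's median signal (30.7 in HL60 and 32.8 in R-HL60), on both arrays. Of the 12 probes 10 were above it on both, and a further probe each of PYHIN1 and NLRC4 was below it on both. Differences are log2 signal after subtracting each array's 75th percentile, resistant minus parental, from the probe with the highest mean signal. The error beside a difference is the probe-to-probe SD, the spread between probes of the same gene among probes of like brightness. It ranged between 0.29 in the dimmest class of probes and 0.10 in the brightest and leaves out the spread between cultures and arrays. The 8 markers of the promyelocyte and granulocyte line (MPO, PRTN3, AZU1, CTSG, ELANE, CD33, CSF3R and MYB) were above the floor on both arrays, with a summed signal of 811268 and 726656. Of these, 7 were lower in R-HL60 and 1 higher. PRTN3 was at -0.80 ± 0.10, and ELANE was the only marker past 2-fold, at -2.20. Of other cells, 4 of 6 monocyte and macrophage markers (summed signal 555 and 519), 6 of 6 lymphoid (8658 and 10500.5), 3 of 5 epithelial (1669.8 and 1874) and 0 of 5 fibroblast markers (57.8 and 67.2) were above it on both. FCGR3A, MARCO, EPCAM, CDH1 and COL1A1 were below it on both, and none of these markers was past 2-fold. Of the 6 lymphoid markers 4 were higher in R-HL60 and 2 lower, from NCAM1 at -0.69 to CD3D at 0.65. The part of ELANE or of the lymphoid sum in the results was not tested.

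AIM2 was the only member past 2-fold. It read 109 in HL60 and 838 in R-HL60, 3.55 and 25.5 times the floor. The difference was 2.93 ± 0.16 (probe-to-probe SD), or 7.65-fold higher in R-HL60. Ordered from the largest increase, AIM2 had rank 10 among 21836 genes measured on both arrays, and no gene of the 1092 in its brightness class had a larger increase. The value rests on 1 probe with a dim parental signal, and with 50 units added to every signal it was 5.56-fold. In RNA from bulk cells, more cells with the transcript and more transcript per cell cannot be told apart. Among all 23535 genes above the floor on at least 1 array, 0.786% reached 2-fold upward and 0.302% downward. The 1 of 8 members past 2-fold is the gene whose value helped to choose the set, so nothing is read from that share.

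**Figure D1:**
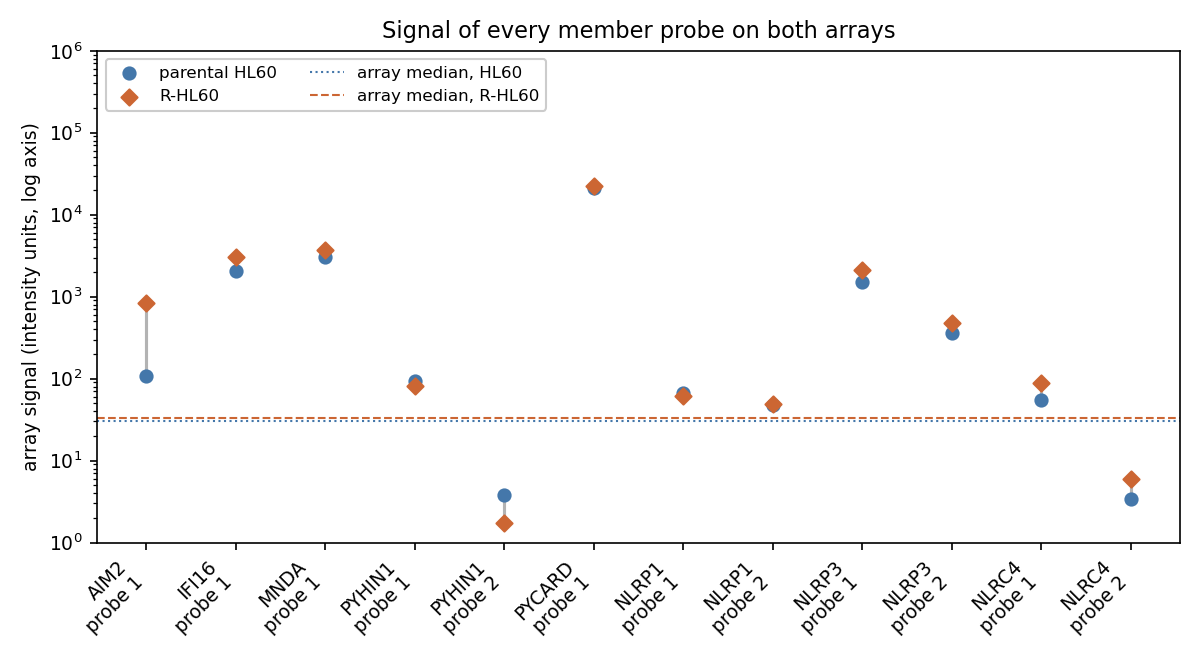
Signal of each of the 12 member probes (log axis, intensity units) on the parental HL60 array (circles) and the R-HL60 array (diamonds), 1 array each, with the array medians of 30.7 and 32.8 as lines. AIM2 went from 109 to 838, and the symbols of the other probes above the lines nearly touch; levels of different probes are not comparable.

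IFI16, a nuclear and cytosolic DNA sensor, had the next difference within the family. It read 2033 in HL60 and 3070 in R-HL60, a difference of 0.59 ± 0.14. MNDA, the myeloid cell nuclear differentiation antigen, had signals of 3075 and 3749, a difference of 0.28 ± 0.14. Both were higher in R-HL60 by more than their probe-to-probe SD, and both lay above the 95th percentile of genes of like brightness (0.26 for IFI16 and 0.23 for MNDA).

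PYHIN1, also called IFIX, was nearly equal on both arrays. Its brighter probe read 93.4 and 81.6, a difference of -0.20 ± 0.27, within the probe-to-probe SD. Its other probe read 3.86 and 1.71, below the floor, and gave no difference. The family therefore ran from -0.20 for PYHIN1 to 2.93 for AIM2, and AIM2 exceeded IFI16 by 2.35 on the log2 scale.

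PYCARD encodes the adaptor through which the pyrin-domain sensors AIM2 and NLRP3 recruit caspase-1. It read 21139.6 in HL60 and 22611 in R-HL60. The difference of 0.09 ± 0.10 was within the probe-to-probe SD, and its sign depended on the scaling: it was 0.16 in the authors' normalized table and -0.00 with the arrays shifted to a common median.

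NLRP3, a sensor that responds to potassium efflux and membrane damage, was measured by 2 probes above the floor. The first read 1503 and 2133 (0.50 ± 0.14) and the second 364 and 471 (0.36 ± 0.16). Both probes were higher in R-HL60, at 1.41-fold and 1.29-fold, and differed from each other by less than their SDs. The first lay above the 95th percentile of genes of its brightness, 0.26, and the second inside the 5th to 95th percentile of its own class, -0.35 to 0.38.

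NLRC4, which works with NAIP proteins on bacterial flagellin and secretion-system proteins, read 55.1 and 89.3 on its brighter probe. The difference of 0.69 ± 0.27, or 1.61-fold, was the largest after AIM2, 2.25 lower on the log2 scale. The probe was only 1.80 and 2.72 times the floor, the value fell inside the 5th to 95th percentile of genes as dim (-0.43 to 0.72), and it was 0.40 with the offset of 50 units. Its other probe, at 3.36 and 6.01, was below the floor.

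NLRP1, a sensor of pathogen proteases that is held in check by DPP9, had 2 dim probes above the floor. They read 67.1 and 61.1 (-0.14 ± 0.27) and 47.5 and 49.6 (0.06 ± 0.29). The probes pointed in opposite directions, and each difference was within its SD. In the authors' normalized table both were below 0, at -0.20 and -0.01.

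Over the 8 members, 6 differences were above 0 and 2 below, with a median of 0.39. Over the 21836 genes measured on both arrays the median was -0.03 and 42.8% were above 0. AIM2, NLRC4 and IFI16 reached 1.5-fold, against 3.54% of all genes in that direction, and IFI16 lay at that mark. With the offset, NLRC4 was at 1.32-fold and IFI16 at 1.49-fold, both under the mark, while AIM2 stayed past it at 5.56-fold. The members were chosen with these differences known, so nothing is read from these counts or from the median. The 7 members other than AIM2 ran from -0.20 to 0.69.

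**Figure D2:**
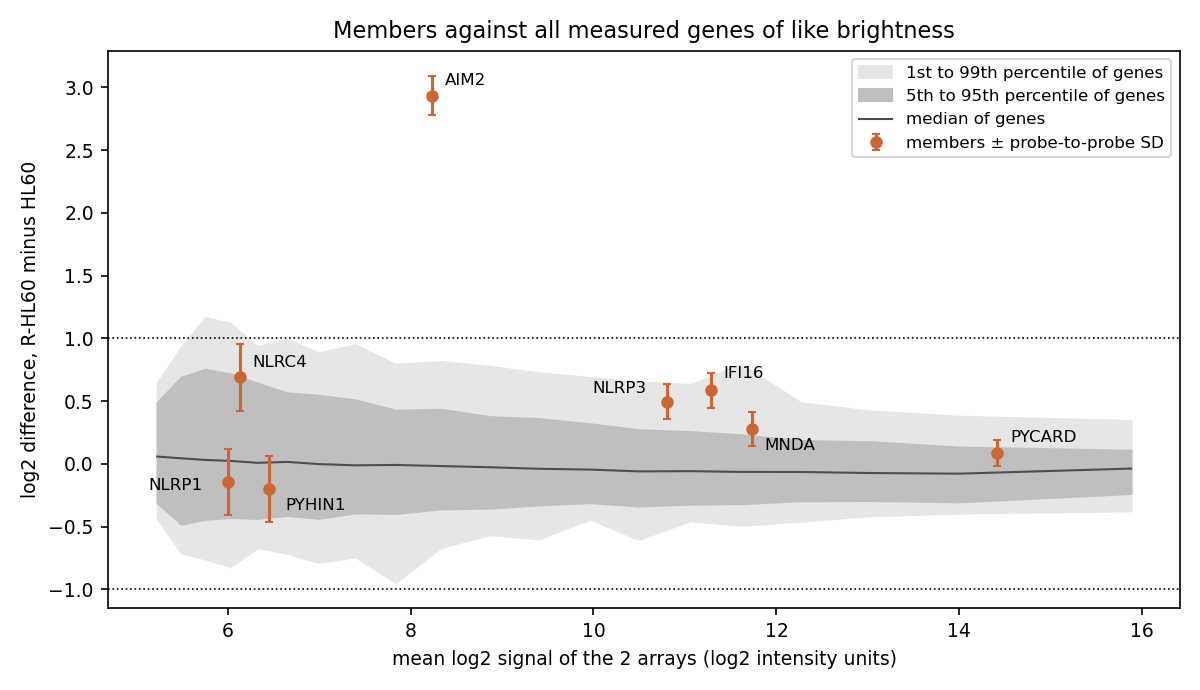
Log2 difference (R-HL60 minus HL60) of the 8 members against their mean log2 signal, with the probe-to-probe SD as bars; grey bands hold the 1st to 99th and 5th to 95th percentiles of the genes above the floor in 20 classes of brightness, and dotted lines mark 2-fold. AIM2 at 2.93 is far above the bands, IFI16, NLRP3 (its brighter probe) and MNDA lie above the inner band, and NLRC4, NLRP1, PYHIN1 and PYCARD lie inside it.

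The rest of the inflammasome pathway was read from lists by role. Of 88 genes that are not members, 87 had a probe of that name, 65 were above the floor on at least 1 array and 64 on both. Of these 65, 2 were at least 2-fold higher, CARD16 and CARD17P, and 0 were 2-fold lower, against 0.786% and 0.302% of all genes. The 64 had a median of 0.02, with 38 above 0 and 26 below. Over all genes measured on both arrays the median was -0.03 and 42.8% were above 0. The lists were chosen with earlier results of these data known, so nothing is read from these counts or from the median. PYDC5, the remaining PYHIN-family gene, had no probe of that name.

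Among adaptors and decoys, CARD16 and CARD17P stood apart from the rest. CARD16 encodes little more than a CARD close to that of caspase-1, and is known as a regulator of caspase-1. CARD16 read 318 and 661 (1.04 ± 0.16, 2.06-fold) and CARD17P, named CARD17 on the array and a transcribed pseudogene in RefSeq, read 56.3 and 135 (1.26 ± 0.27, 2.39-fold). With the offset both were under 2-fold, at 0.94 and 0.79. The other 5 measured members of that list ran from CARD8 at -0.04 to CARD6 at 0.16, and the median was 0.10. CARD8 is a further sensor under DPP9 control, read here from its brightest probe, and the pyrin-only decoy PYDC1 was at 0.10.

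CASP1, the protease that inflammasomes activate, read 907 and 1687, a difference of 0.89 ± 0.14 or 1.85-fold that did not reach 2-fold. Its neighbours CASP4 and CASP5, which bind bacterial lipopolysaccharide in the non-canonical pathway, were at 0.10 ± 0.10 and 0.16 ± 0.13. CASP1, CARD16 and CARD17P follow each other on chromosome 11 among the genes with a probe, as the plot of gene order shows. They are close in sequence, the probe sequences were not used here, and how far each probe also binds the other transcripts was not tested. GSDMD, the main pore former, read 13.6 and 23.5, below the floor on both arrays, and NINJ1, which ruptures the membrane after pore formation, was at 0.12.

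IL1B, a caspase-1 substrate, read 2219 and 4383, a difference of 0.97 ± 0.14 or 1.96-fold, just short of 2-fold. It passed 2-fold with quantile normalization, with loess and in the authors' normalized table. That table is close to a quantile normalization of the same arrays, so the first and last of these settings are not separate. IL18, the other cytokine substrate, was on the opposite side, at 92.8 and 69.0 (-0.44 ± 0.27). The list of IL-1 family ligands, receptors and inhibitors had a median of -0.04 over 13 genes, 5 of them above 0, with 0 past 2-fold.

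The sensor list of 22 NLR and pyrin genes had 11 above the floor on both arrays and 11 on neither. None of the 11 was past 2-fold and the median was 0.29, with 6 above 0 and 5 below. These 11 include the members NLRP1, NLRP3 and NLRC4, chosen with their values known, so nothing is read from that median. MEFV, which encodes pyrin, was at 0.55 ± 0.20, NOD1 at 0.49 ± 0.16 and NLRP12 at 0.36 ± 0.16. On the other side were NLRX1 at -0.27 ± 0.14 and NLRP11 at -0.24 ± 0.29. NLRC3 was at -0.27 ± 0.13 on its brighter probe and 0.04 on its other. NAIP, the partner of NLRC4, was at -0.06 ± 0.16. NLRP2 and NOD2 were below the floor on both arrays.

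Of the 20 regulators 19 were measured, with a median of 0.02 and 0 past 2-fold. P2RX7, the ATP-gated channel upstream of NLRP3, had the largest difference. Its brightest probe read 2301 and 4192 (0.86 ± 0.14, 1.81-fold), and its 3 probes agreed closely, from 0.78 to 0.90. TXNIP was at 0.31 ± 0.10 and the NLRP3-binding kinase NEK7 at -0.12 ± 0.22. The 11 measured genes of the cytosolic DNA response, the other route that DNA can trigger, stayed within -0.25 to 0.26 with a median of 0.01. In that list the DNA sensor CGAS and its adaptor STING1 were at 0.04 each, both within the probe-to-probe SD of 0.14, and IRF7 at 0.26 was the largest.

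**Figure D3:**
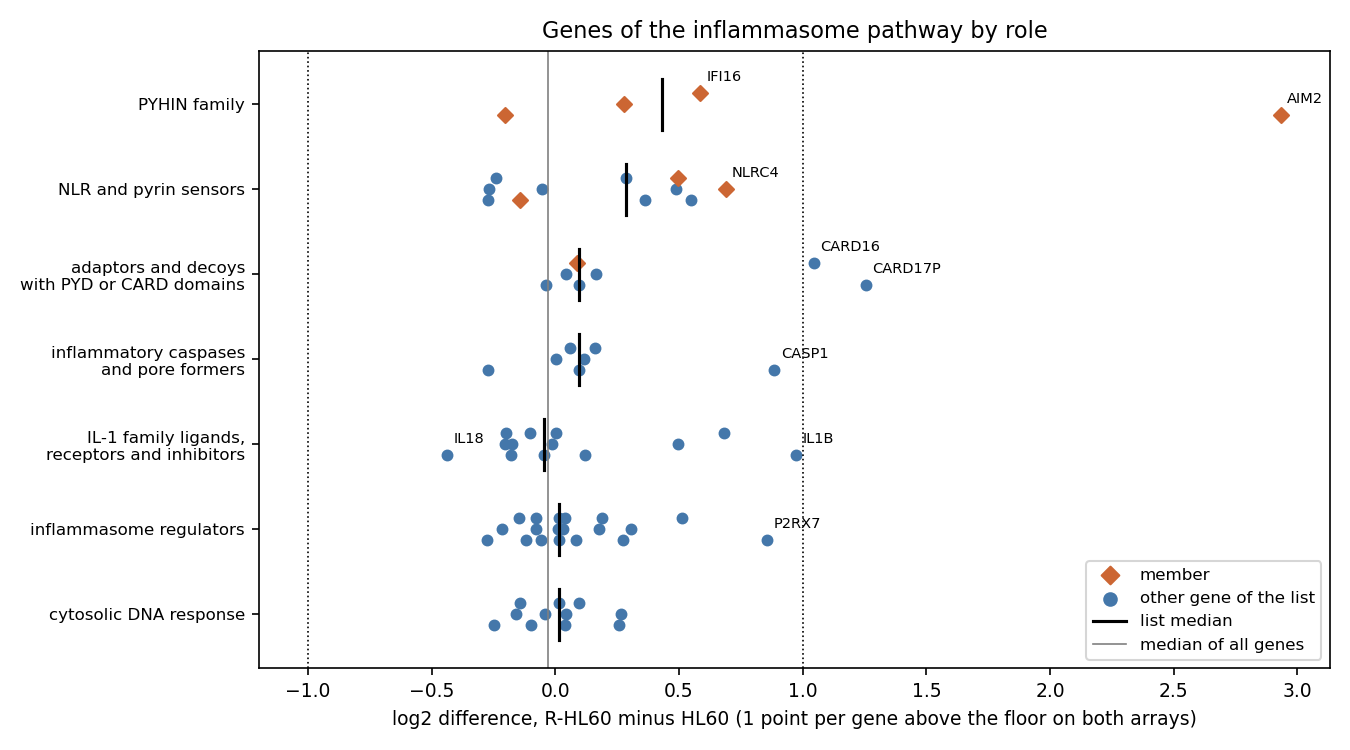
Log2 difference (R-HL60 minus HL60) of each gene above the floor on both arrays, by list; diamonds are members, circles other genes, black bars list medians, the grey line the median of all genes at -0.03 and dotted lines 2-fold. AIM2, CARD16 and CARD17P lie beyond 2-fold, IL1B, CASP1 and P2RX7 just short of it, and the cytosolic DNA response between -0.25 and 0.26.

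In the gene order of RefSeq, MNDA, PYHIN1, IFI16 and AIM2 follow each other with only non-member entries without a probe between them. Within this run AIM2 was at 2.93 and its next measured neighbours IFI16 and PYHIN1 at 0.59 and -0.20. Of the 5 entries on each side, 5 in all had a probe and 2 were above the floor on both arrays. OR6N1, an olfactory receptor gene before MNDA, was at -0.08. CADM3-AS1, an antisense transcript 5 entries after AIM2, read 118 and 39.3, 3.01-fold lower in R-HL60 (-1.59 ± 0.27), on 1 dim probe; with the offset it was at -0.92. CADM3 itself was below the floor on both arrays. The 10 nearest measured genes on each side, a window chosen after values were seen, had a median of -0.01, and 19 of the 20, all but CADM3-AS1, lay between -0.40 and 0.50. They include olfactory receptor genes such as OR6N1, OR10T2 and OR10J3. A signal above the floor is not a call of detection, so some of these differences may hold no transcript signal.

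**Figure D4:**
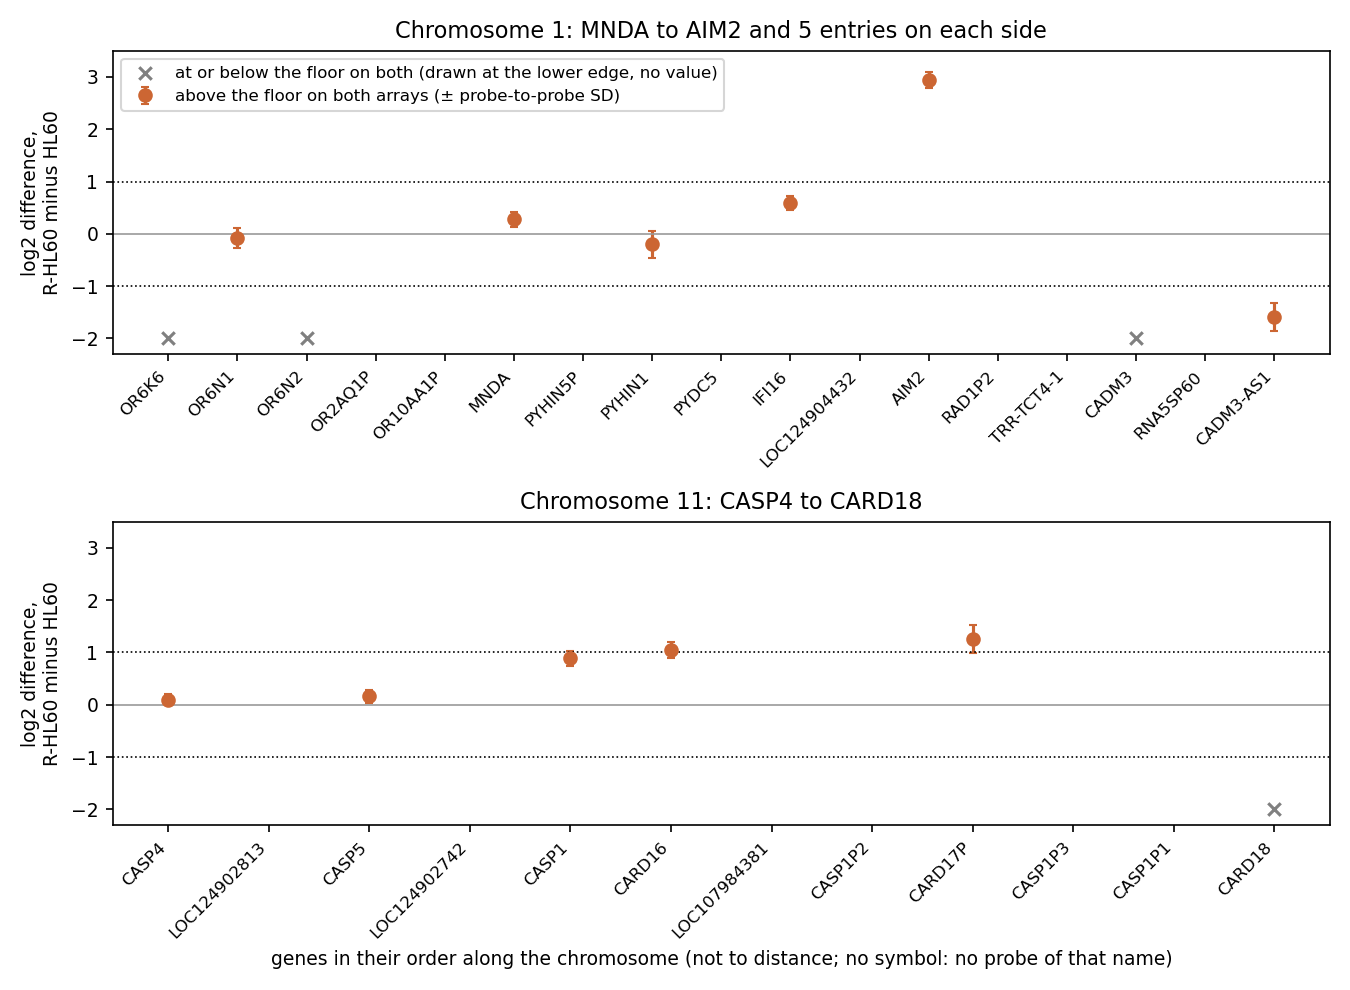
Log2 difference (R-HL60 minus HL60) of genes in their chromosomal order, not to distance, around the PYHIN genes on chromosome 1 and the CASP1 genes on chromosome 11; bars are the probe-to-probe SD, crosses at the lower edge genes below the floor on both arrays, and entries with no symbol had no probe of that name. AIM2 at 2.93 and CADM3-AS1 at -1.59 stand apart on chromosome 1, and CASP1, CARD16 and CARD17P lie between 0.89 and 1.26 on chromosome 11.

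By size of the difference alone, the named genes closest to AIM2 among 14067 measured on both arrays were LHX2 (35.1 and 269.6, a gap of 0.00 on the log2 scale), NFKB2 (71.4 and 505, gap 0.12), BCL3 (gap 0.33), IL4I1 (gap 0.36) and ICAM1 (gap 0.37). The parental signals of LHX2 (35.1) and IL4I1 (42.6) were close to the floor of 30.7, so their folds rest on near-floor values. ICAM1 (59.3) and NFKB2 (71.4) were also dim in HL60, and BCL3 was brighter at 351. Each gene rested on 1 probe, and likeness over 2 arrays says only that the folds were similar.

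**Figure D5:**
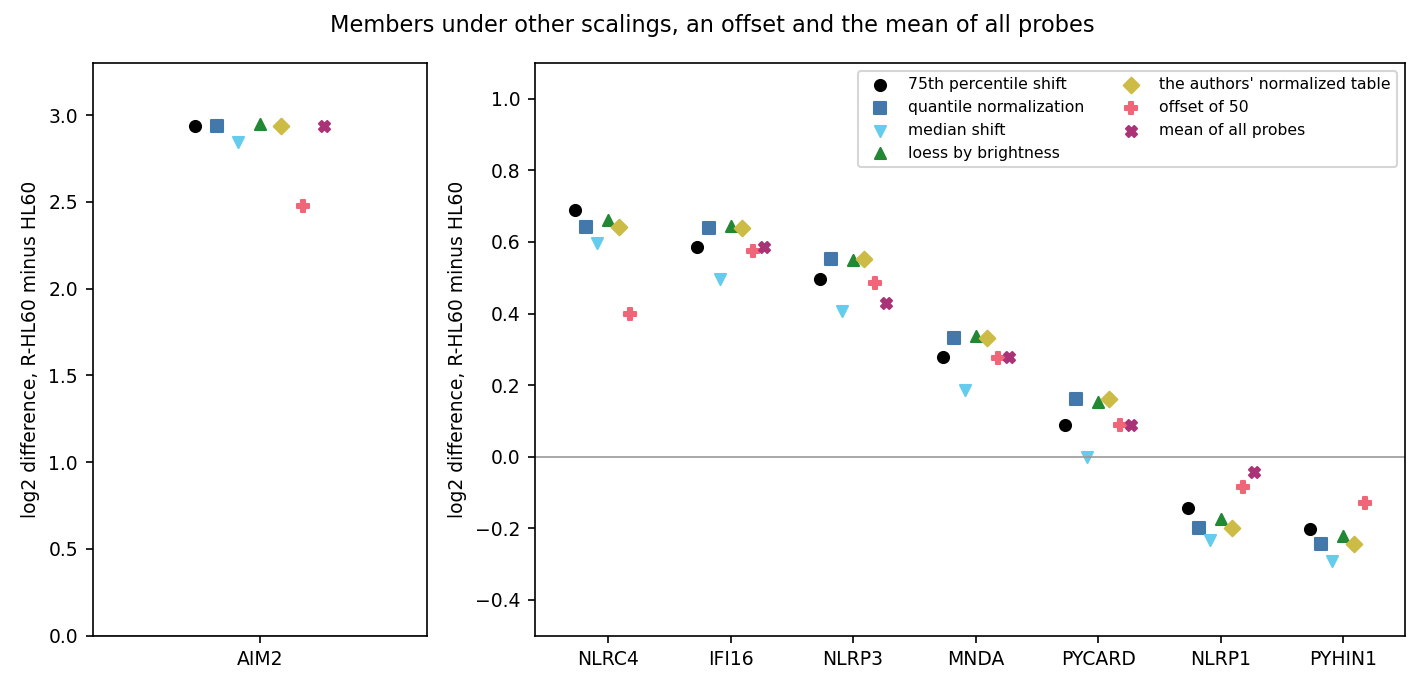
Log2 difference (R-HL60 minus HL60) of each member under 7 settings: the 75th percentile shift, median shift, quantile normalization, the authors' normalized table, loess on brightness, 50 units added to each signal, and the mean of all probes; a missing symbol marks a gene below the floor on at least 1 array in that setting. AIM2 lay between 2.47 and 2.95, and only PYCARD had values on both sides of 0.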

How the data were processed

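Total RNA of both lines was labelled with Cy3 and hybridised in a single colour, per the labels' protocols; Agilent Feature Extraction 10.7.3.1 was used, per the submitters' processing notes. The deposited files give 1 linear intensity per probe with a gene name; the scanner column, background treatment, detection flags and genome build are not given in the sources used here. An alternative was the table of normalized intensities that the authors deposited, which gave both columns the same quartiles.

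Signals were taken to log2, each array's 75th percentile was subtracted, and the floor was the array median. The probe with the highest mean signal represented a gene. A gene above the floor on 1 array only has a bound. Older names were updated through RefSeq (GRCh38.p14). The probe-to-probe SD came from 4723 genes with several probes above the floor, in 10 brightness classes. With 1 array per line there was no test, and the number of arrays limits the precision. The members and lists were chosen with earlier results of these data known. Named were all members with every probe, each list's genes past 2-fold or otherwise its largest difference, and 17 genes fixed by role. The 5 genes nearest to AIM2 in difference and the 5 neighbours on each side were named as well. MEFV, NOD1, NLRC3, NLRX1, NLRP11, NLRC5, CARD6, PYDC1, NINJ1, BRCC3 and the CASP1 cluster as a run were chosen with their values in view. The steps were checked on simulated data. Motifs and local alignments (match 2, mismatch -1, gaps -4 and -1) used Biopython 1.88; other tools were Python 3.11.15, numpy 2.4.6, pandas 2.3.3, statsmodels 0.14.6 and matplotlib 3.10.9. Alternatives were other scalings, an offset of 50, a floor at the 40th percentile, at the 60th or absent, the mean of all probes and thresholds of 1.5-fold and 3-fold.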

Additional observations from a re-analysis of the deposited data

How the results depend on the processing

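AIM2 was past 2-fold in all 10 settings of scaling, offset, floor and probe rule, from 2.47 to 2.95 on the log2 scale. With 1 probe above every floor, its value of 2.93 could not change with the floor or with the mean of all probes. Quantile normalization and the authors' normalized table both gave 2.94. Only the scaling and the offset could therefore move AIM2. The lowest value, 2.47, came with the offset of 50 units, which shrinks folds on dim signals by construction. AIM2 was the only member past 2-fold in each of the 10 settings, and at 1.5-fold the count of members was 3. The count of 3 pathway genes past 2-fold, AIM2 included, was 6 with no floor, 1 with the offset, 9 at 1.5-fold and 1 at 3-fold. The share of all genes past the threshold in either direction moved with it, from 1.09% to 8.92% with no floor, 0.45% with the offset, 4.93% at 1.5-fold and 0.319% at 3-fold. With a median shift CARD16 fell under 2-fold. The 7 other members stayed within their probe-to-probe SD of the reported value, apart from NLRC4 with the offset (0.40). NLRC4 and PYHIN1 had no value in the mean of all probes, nor NLRC4 and NLRP1 with the floor at the 60th percentile. No paired analysis was possible because each line has 1 array. Probes near the floor, such as those of NLRC4 and NLRP1, and the lack of replicates limit these values.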

Other observations

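The window before PYCARD differed in base composition from those of the other members. Its 250 bases held 16 CpG dinucleotides at 71.2% G and C, whereas the 9 windows of 6 other members held 0 to 5 CpG at 36.0% to 52.4%. These 9 include windows of NLRC4 that overlap each other. Over all 35114 windows the medians were 11 CpG and 58% G and C. The promoter table used here matched 7 of the 8 members; the window of NLRP1 was not analysed here. DNA methylation was not measured.

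NLRC5, an NLR gene tied to antigen presentation, had 2 probes above the floor that gave 0.29 and 0.68 on the log2 scale. BRCC3, which removes ubiquitin from NLRP3, was lower in R-HL60 on all 3 probes, from -0.47 to -0.28, and none reached 2-fold.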
